A study of Mus musculus with 6 samples.

Results

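The nuclear genes for the proteins of the mitochondrial ribosome were followed in the prefrontal cortex of juvenile Cyfip2 mutant mice. They were chosen by symbol (Mrpl or Mrps with a number) and protein-coding type, keeping those whose normalized counts averaged 10 or more, and gave 78 members (49 Mrpl and 29 Mrps genes) among 14969 genes tested, of 17889 in the table. All 78 such genes of the annotation had a row, and all 78 passed the filter on low values. Gene expression had been measured by mRNA sequencing in C57BL/6J mice at postnatal day 28, in 3 Cyfip2 mutant samples, titled Hetero, and 3 wild-type (WT) samples. The labels give neither the sex of the mice nor which part of Cyfip2 was altered, and they do not tell whether each sample is a different animal. The p-values therefore reflect how far these 6 samples scatter, and some of that scatter may be technical. Cyfip2 is part of the WAVE complex, which drives actin assembly. The third Hetero library (Hetero 3) stood apart in the members' level and in estimated depth, so results that rest on it are given with and without it.

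The mitochondrial ribosome sits at the inner mitochondrial membrane and translates the messages of mitochondrial DNA, all of which encode subunits of the oxidative phosphorylation system. Its ribosomal RNAs are transcribed in the organelle, whereas its proteins are encoded in the nucleus, made in the cytosol and imported. Some of these proteins descend from bacterial ribosomal proteins, and others exist only in mitochondria. In neurons, oxidative phosphorylation supplies much of the ATP used by ion pumps and synapses.

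In Hetero cortex no member passed the test: 0 of 78 reached an adjusted p under 0.05 (limma, Benjamini-Hochberg over all genes), against 0% of all genes tested. At an unadjusted p under 0.05 there were also 0 members, against 3.83% of all genes (1.66% higher and 2.17% lower in Hetero). The members had a higher fitted value in Hetero in 49 cases and a lower one in 29, which is 62.8% higher beside 49.1% of all genes. Their median log2 change, Hetero minus WT, was 0.03, with a range of -0.38 to 0.19, beside a median of -0.002 over all genes. The higher count rested on 1 library: without Hetero 3, 30 of 78 members were higher, beside 50.2% of all genes, and the median was -0.02.

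The intervals around these differences were narrow. The 95% confidence interval of the Hetero to WT ratio lay within 1.25-fold in both directions for 62 of 78 members (79.5%), against 55.5% of all genes. It lay within 1.5-fold for 76 members (97.4%), against 80.9% of all genes. Mrpl23 and Mrpl47 were the 2 members whose interval was wider than that. The median standard error of the log2 change was 0.089 over the members and 0.097 over all genes, and 65 members had a log2 change smaller than 0.1 in size.

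**Figure D1:**
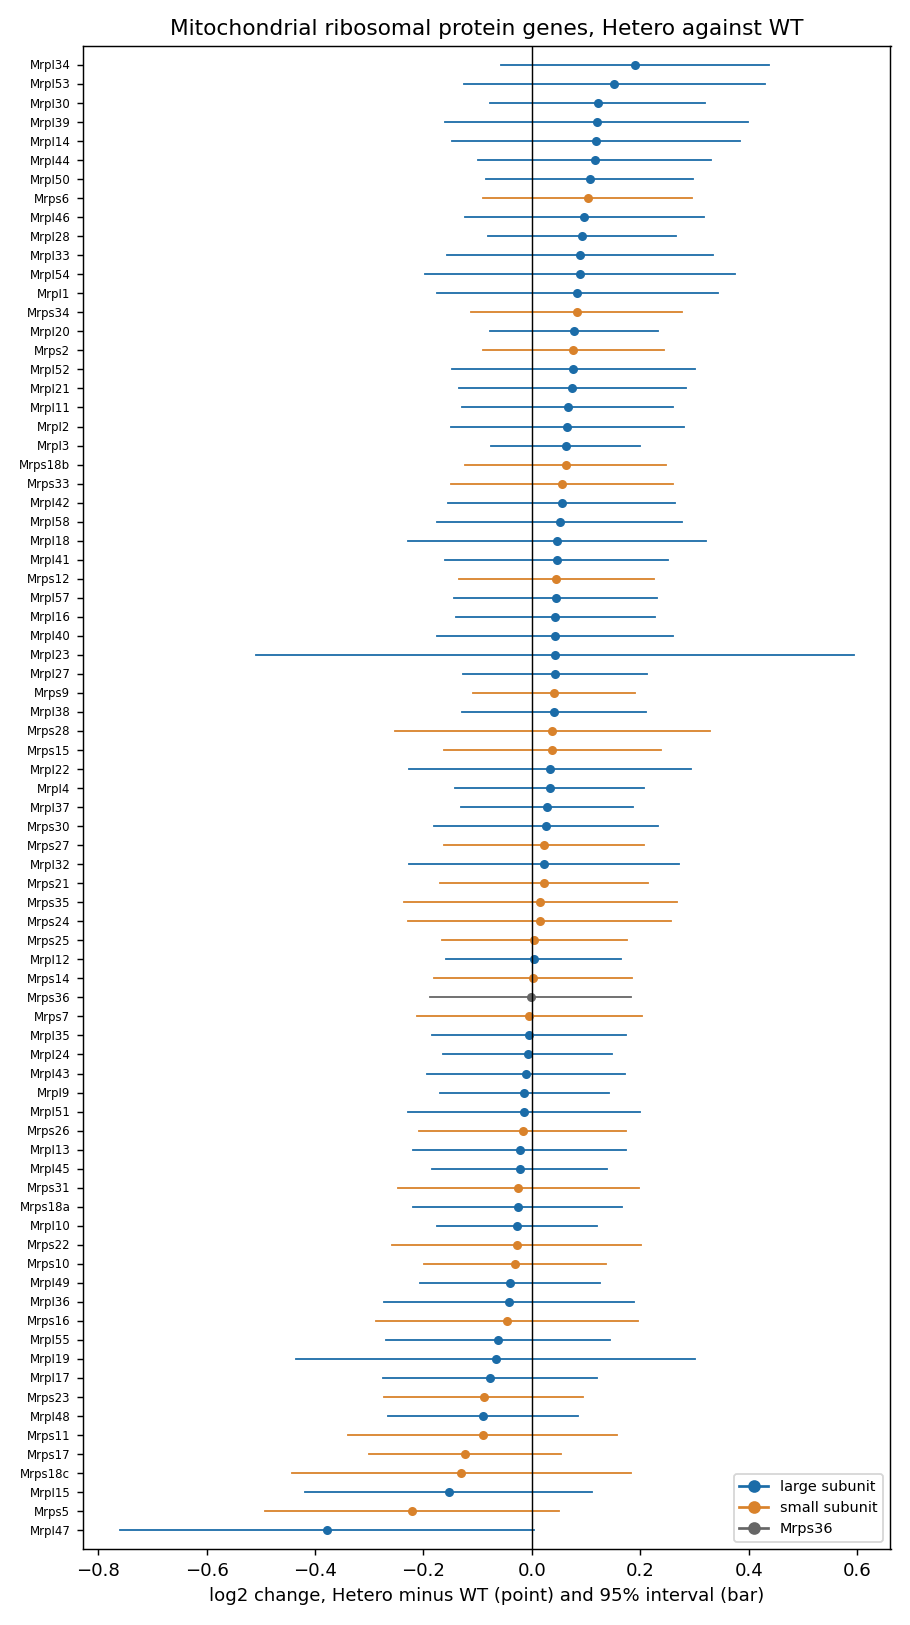
Each point is the log2 change, Hetero minus WT, of 1 of the 78 genes, sorted from highest to lowest, and each bar is its 95% confidence interval from limma. Every bar includes 0, from Mrpl34 at 0.19 at the top to Mrpl47 at -0.38 at the bottom.

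Facts of the whole series bear on these values. Column totals lay between 29879143 and 30735443 because the authors had scaled the samples to each other, and the spacing of low values put the libraries at about 25500000 to 43900000 assigned reads, with Hetero 3 the deepest by this estimate. The estimate was least well supported there, since its step divided 15.5% of low values, the lowest share of the 6 libraries. Cyfip2 averaged 20160 ± 1630 normalized counts in Hetero and 29977 ± 2260 in WT (SD, n = 3 each), without overlap. Its log2 change was -0.57 ± 0.07 (SE), with a limma adjusted p of 0.312 and an exact two-sided permutation p of 0.1, which is as low as this design can go. The summed level of 6 excitatory neuron markers was 177690 to 184362 in Hetero and 189628 to 197502 in WT, and all 6 were detected. The 4 markers of oligodendrocyte precursors were each lower in Hetero without overlap, beside 4.32% of all genes. Their sums were 5183 to 5746 in Hetero and 6193 to 7085 in WT, with a median log2 change of -0.26, and 0 passed the test. Of the 6 interneuron markers 5 were higher in fitted value and 2 lay above WT without overlap, beside 4.4% of all genes. Of these 6 markers 0 passed. The 5 microglia markers were each lower in fitted value, with sums of 7671 to 8369 in Hetero and 8238 to 9105 in WT, and 0 passed. The part of these shifts in the members' values was not tested. In bulk tissue, fewer cells of a type and less RNA per cell cannot be told apart.

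The level of the family in the tissue was set per kilobase of transcript, so that long and short messages could be compared. Mean normalized counts per kilobase over the 6 libraries ran from 81.7 for Mrpl32 to 1336 for Mrps21, a 16.3-fold range. The median member had 398 normalized counts per kilobase, above the 215 of the median gene tested and below the 3088 of the median cytosolic ribosomal protein gene (76 genes). After Mrps21, a counterpart of bacterial S21, the highest were Mrpl42 at 1270, Mrpl20 at 1239, Mrps34 at 1015 and Mrps33 at 1002 per kilobase. The lowest after Mrpl32 were Mrps35 at 81.8, Mrpl1 at 86.4, Mrpl17 at 93.5 and Mrpl47 at 95.5. Both ends of the order held large and small subunit genes. These levels assume the length of 1 annotated transcript per gene. Exons of Mrps34 share 763 bases with exons of Nme3 on the same strand, so reads could be split between these genes.

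**Figure D2:**
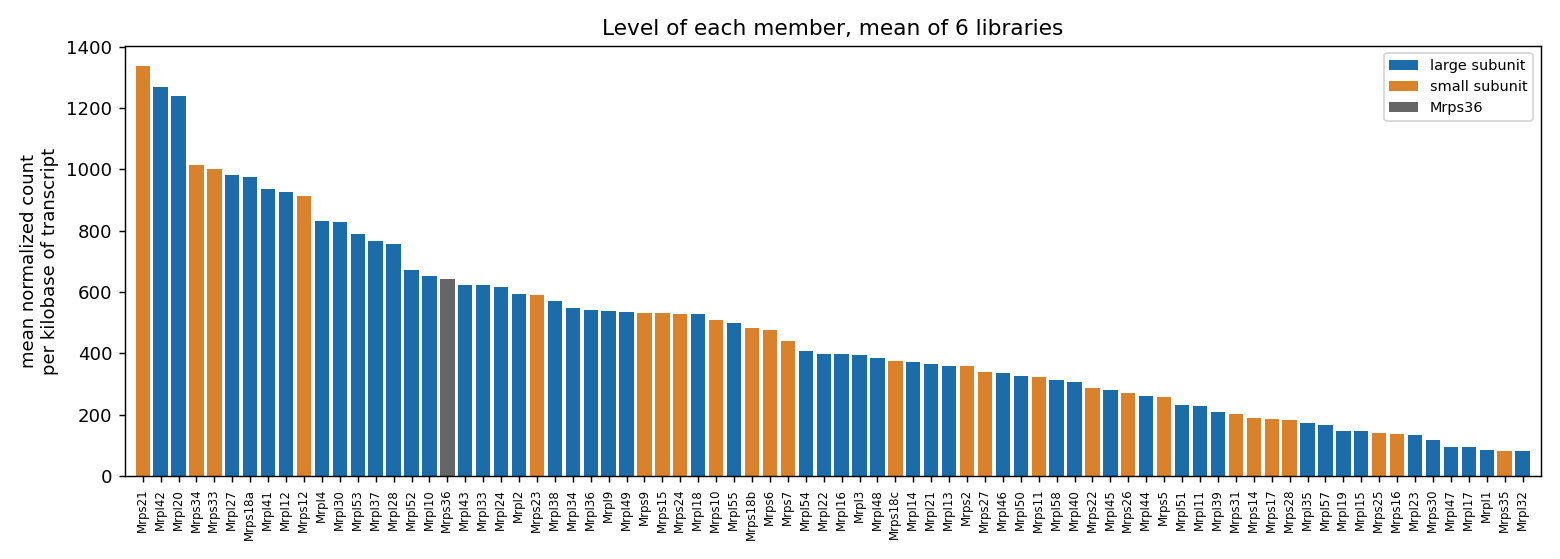
Bars give the mean normalized count per kilobase of transcript over the 6 libraries for each of the 78 genes, from the highest on the left. Mrps21 stands at 1336 and Mrpl32 at 81.7, with large and small subunit genes mixed along the order.

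In all 10 genes at these ends the groups overlapped. Mrps21 read 619.5, 637.2 and 715.3 normalized counts in Hetero, against 609.5, 648.1 and 682.1 in WT. Mrpl20, whose bacterial counterpart L20 acts early in assembly of the large subunit, read 1006.4, 909.6 and 1002.1 in Hetero, against 927.9, 908.6 and 925.6 in WT. Mrpl32, whose bacterial counterpart is L32, read 227.6, 257.4 and 259.5 in Hetero, against 263.4, 224.8 and 245.0 in WT. In Mrpl20 the overlap came from Hetero 2 alone, the other Hetero samples lying above every WT sample.

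The large subunit holds the peptidyl transferase centre, formed by its ribosomal RNA, and the exit tunnel. By structure it takes the Mrpl genes together with Mrps30 and Mrps18a, 51 genes here. Of these, 34 were higher and 17 lower in Hetero, 0 passed the test, and the median log2 change was 0.04. Without Hetero 3, 23 of the 51 were higher and the median was -0.01.

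Mrpl34 (ENSMUSG00000034880, chr8:71464959-71465747 in GRCm38, plus strand), the counterpart of bacterial L34, had the smallest p of the members that were higher. It read 353.9, 311.8 and 404.0 normalized counts in Hetero, against 310.0, 305.9 and 315.9 in WT. The WT samples lay close together, and 1 Hetero sample fell among them. The means were 357 ± 46.1 in Hetero and 311 ± 5.03 in WT (SD, n = 3 each), which is a log2 change of 0.19 ± 0.11 (SE; limma adjusted p = 1.0). The log2 change was 0.10 without Hetero 3 and 0.28 without Hetero 2.

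Mrpl44 (ENSMUSG00000026248, chr1:79776018-79781445 in GRCm38, plus strand), a mitochondria-specific protein with a ribonuclease III-like fold, was the 1 member whose groups did not overlap, all Hetero samples lying above all WT samples. That is 1 of 78, where 8.72% of all genes tested had groups without overlap, 4.4% with Hetero above. It read 384.6, 383.0 and 391.4 in Hetero, against 374.3, 377.5 and 320.3 in WT. The difference from WT 1 and WT 2 was small, and WT 3 stood below the other 5 libraries. The log2 change was 0.12 ± 0.10 (SE; limma adjusted p = 1.0), and leaving out 1 library at a time gave 0.04 to 0.16, with 0.04 without WT 3.

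Mrpl30, the counterpart of bacterial L30, read 876.9, 740.7 and 890.9 in Hetero, against 769.9, 730.3 and 799.6 in WT, a log2 change of 0.12 ± 0.09 (SE). Mrpl50, a protein found only in mitochondrial ribosomes, read 688.0, 705.9 and 744.5 in Hetero, against 730.5, 638.6 and 620.9 in WT, a log2 change of 0.11 ± 0.08 (SE). In both genes the groups overlapped. The log2 change of Mrpl30 was 0.07 without Hetero 3 and 0.21 without Hetero 2, and that of Mrpl50 was 0.06 without WT 3 and 0.18 without WT 1.

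Mrpl53, also mitochondria-specific, read 514.0, 531.0 and 689.9 in Hetero, against 554.4, 464.5 and 532.7 in WT. Hetero 3 alone stood above the WT samples, and the log2 change of 0.15 ± 0.12 (SE) was 0.02 without it, 0.08 without WT 2 and 0.23 without Hetero 1. All exons of Mrpl53 lie on the same strand as exons of Gm42688, a coding gene with an identical sequence over the Mrpl53 coding region, so reads could be split between them. Their sum, an alternative chosen after seeing the data, was 805.0, 830.7 and 1087.7 in Hetero, against 799.3, 839.7 and 1013.7 in WT, a log2 change of 0.03.

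Mrpl47 (ENSMUSG00000037531, chr3:32725397-32737605 in GRCm38, minus strand), the counterpart of bacterial L29 beside the exit tunnel, had the lowest log2 change of the 78 members. It read 287.9, 209.1 and 350.9 normalized counts in Hetero, against 339.7, 361.3 and 378.8 in WT. Hetero 1 and Hetero 2 lay below every WT sample, and Hetero 3 lay among them. The means were 283 ± 71.0 in Hetero and 360 ± 19.6 in WT (SD, n = 3 each), which is a log2 change of -0.38 ± 0.17 (SE; limma adjusted p = 1.0). Leaving out 1 library at a time gave log2 changes of -0.55 to -0.18, with -0.55 without Hetero 3 (limma adjusted p = 0.875) and -0.18 without Hetero 2 (limma adjusted p = 0.999). Its exons share 452 bases with Actl6a and 616 bases with Ndufb5 on the opposite strand, and whether counting used strand is not given in the sources used here.

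Mrpl15 and Mrpl48 were the other large subunit genes named for a lower value. Mrpl15, the counterpart of bacterial L15, read 647.4, 481.1 and 612.8 in Hetero, against 622.7, 602.8 and 699.4 in WT, a log2 change of -0.15 ± 0.12 (SE). Mrpl48, a mitochondria-specific protein of the central protuberance, read 1451.3, 1606.7 and 1718.5 in Hetero, against 1654.9, 1810.0 and 1613.4 in WT, a log2 change of -0.09 ± 0.08 (SE). Their groups overlapped. The log2 change of Mrpl15 was -0.02 without Hetero 2 and -0.24 without Hetero 1, and that of Mrpl48 was -0.02 without Hetero 1 and -0.15 without Hetero 3.

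The small subunit binds the message and holds the decoding centre. Of its 26 genes 15 were higher and 11 lower in Hetero, 0 passed the test, and the median log2 change was 0.01. Without Hetero 3 there were 6 higher of 26, with a median of -0.04.

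Mrps5 (ENSMUSG00000027374, chr2:127587222-127606829 in GRCm38, plus strand), the counterpart of bacterial S5, had the lowest log2 change of the small subunit. It read 1056.5, 889.0 and 1256.1 in Hetero, against 1166.6, 1188.1 and 1348.5 in WT. As for Mrpl47, Hetero 1 and Hetero 2 lay below every WT sample and Hetero 3 did not. The log2 change was -0.22 ± 0.12 (SE; limma adjusted p = 1.0). It was -0.35 without Hetero 3 (limma adjusted p = 0.875) and -0.10 without Hetero 2 (limma adjusted p = 0.999).

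Mrps17, the counterpart of bacterial S17, read 840.4, 916.1 and 945.2 in Hetero, against 908.1, 1008.2 and 1028.1 in WT, a log2 change of -0.12 ± 0.08 (SE). Mrps23, a mitochondria-specific protein, read 719.1, 743.0 and 822.8 in Hetero, against 849.8, 823.3 and 755.8 in WT, a log2 change of -0.09 ± 0.08 (SE). Mrps6, the counterpart of bacterial S6, read 420.7, 393.6 and 436.1 in Hetero, against 396.8, 391.9 and 374.9 in WT, a log2 change of 0.10 ± 0.09 (SE), the highest of the small subunit. The groups overlapped in each of these genes. Leaving out 1 library at a time gave -0.18 to -0.07 for Mrps17, with -0.07 without Hetero 1. It gave -0.15 to -0.05 for Mrps23, with -0.15 without Hetero 3, and 0.07 to 0.14 for Mrps6.

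**Figure D3:**
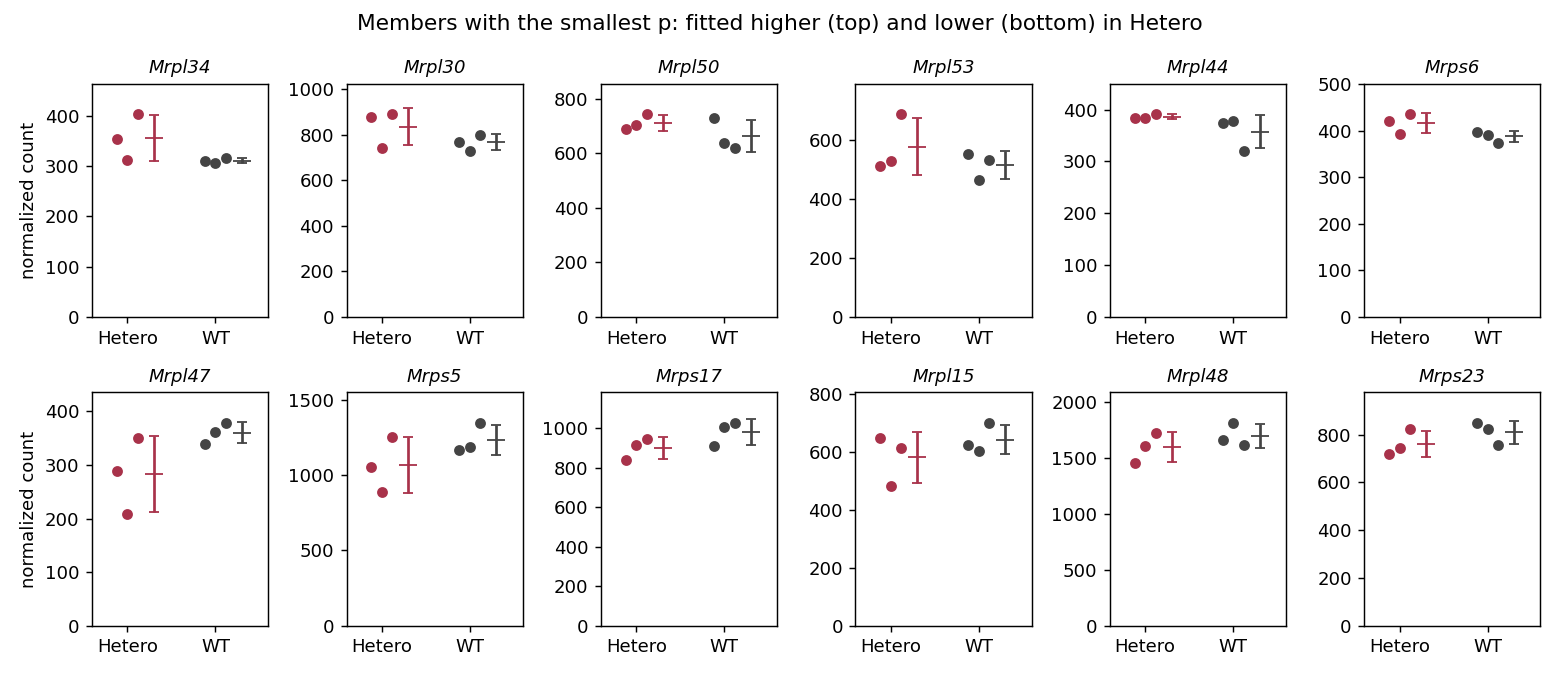
Points are the normalized counts of the 3 Hetero (left) and 3 WT (right) samples for the 6 members with the smallest p that were higher (top) and the 6 that were lower (bottom) in Hetero, with mean and SD beside them. The groups overlap in every panel except that of Mrpl44, where Hetero reads 383.0 to 391.4 and WT 320.3 to 377.5.

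Some members are set apart by their place in the structure. Mrps18a, Mrps18b and Mrps18c are paralogs related to 1 bacterial protein, S18, and only one of them is found on the large subunit. Mrps18a, the large subunit paralog, read 784.4, 842.2 and 939.2 in Hetero, against 831.4, 850.4 and 926.6 in WT (log2 change -0.03 ± 0.09, SE). Mrps18b read 547.8, 535.1 and 513.0 in Hetero, against 484.6, 499.4 and 546.0 in WT (0.06 ± 0.08). Mrps18c read 191.0, 232.9 and 264.2 in Hetero, against 253.1, 224.8 and 271.1 in WT (-0.13 ± 0.14). The log2 change of Mrps18c was -0.005 without Hetero 1 and -0.24 without Hetero 3, and that of Mrps18b ranged from 0.03 without WT 1 to 0.11 without WT 3. The groups overlapped in all 3, and per kilobase Mrps18a was highest at 976, with Mrps18b at 483 and Mrps18c at 375.

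Mrps30, named for the small subunit but placed on the large one, read 393.7, 370.6 and 418.9 in Hetero, against 370.6, 378.4 and 412.2 in WT (log2 change 0.03 ± 0.09, SE). Mrps36, now known as a subunit of the 2-oxoglutarate dehydrogenase complex and not of the ribosome, read 465.7, 439.0 and 444.4 in Hetero, against 425.9, 464.2 and 461.7 in WT (-0.002 ± 0.08). Both genes overlapped between genotypes.

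Members with a bacterial counterpart and those found only in mitochondria were also described apart. Of the 47 with a bacterial counterpart 28 were higher and 19 lower in Hetero, with a median log2 change of 0.02. Of the 30 mitochondria-specific members 21 were higher and 9 lower, with a median of 0.04. Without Hetero 3, 18 of the 47 and 11 of the 30 were higher. In both lists 0 members passed the test, and the difference between the lists was not tested.

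The members varied little among the 6 libraries. The highest library exceeded the lowest by less than 1.25-fold in 54 members (69.2%), against 50.6% of all genes. The steadiest was Mrps9, the counterpart of bacterial S9, which read 754.8, 766.0 and 773.4 in Hetero, against 756.2, 733.5 and 739.7 in WT, a 1.05-fold range. Mrps10 had a 1.06-fold range. Mrpl45, which attaches the ribosome to the inner membrane, read 666.6, 658.1 and 710.4 in Hetero, against 672.4, 690.9 and 702.9 in WT.

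Mrpl23 had the widest range, 2.08-fold. It read 91.3, 89.2 and 93.5 in Hetero, against 58.1, 99.1 and 120.8 in WT, the lowest mean of any member. Its spread was among the WT samples. Mrpl23-ps1, a processed pseudogene identical to it over the coding sequence, averaged 390 normalized counts against 92.0 for Mrpl23. Summed with it, an alternative chosen after seeing the data, the pair read 508.7, 463.5 and 502.7 in Hetero, against 462.1, 502.8 and 452.5 in WT, a 1.12-fold range. In all, 27 members had a copy at least 90% identical over at least 50% of the coding sequence, and 4 had such a copy in the table.

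Hetero 3 stood apart for the family. The level of the members in a library, that is, how far the 78 genes lay on average from their own means on the log2 scale, was -0.03, -0.04 and 0.10 in Hetero 1 to 3, against -0.02, -0.01 and 0.004 in WT 1 to 3. Together the members held 0.162%, 0.161% and 0.179% of the normalized counts in Hetero, against 0.163%, 0.164% and 0.164% in WT. Hetero 3 was thus above and Hetero 1 and Hetero 2 below all WT libraries.

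**Figure D4:**
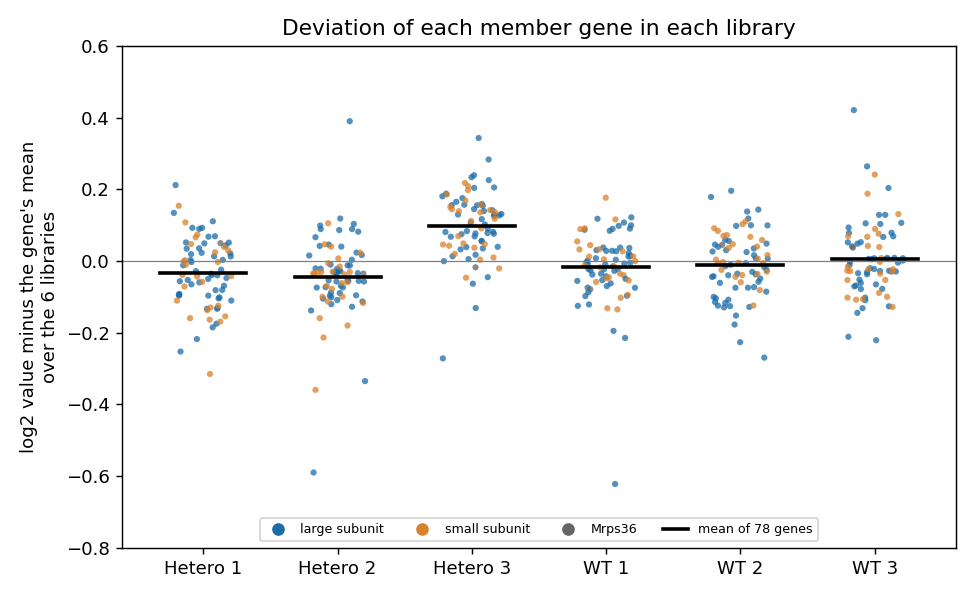
Each point is 1 gene's log2 value in a library minus its mean over the 6 libraries, and bars are the mean over 78 genes. The bar of Hetero 3 stands at 0.10, and the other 5 lie between -0.04 and 0.004.

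The shift was spread over the family. Hetero 3 was the highest of the 6 libraries in 44 of 78 members, 56.4%, against 22.1% of all genes. It was the lowest in 2 members, Mrpl19 and Mrpl35. It exceeded the mean of the other 5 libraries in 70 of 78 members, against 50.7% of all genes. The median difference over the members was 0.13 on the log2 scale.

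Large and small subunit genes shared the shift, with levels of 0.10 each in Hetero 3. The largest differences between Hetero 3 and the other libraries, chosen after their values were seen, were 0.41 for Mrpl53, 0.34 for Mrpl34, 0.29 for Mrpl58 and 0.28 for Mrpl33 on the log2 scale. Mrpl58 encodes the ribosome rescue factor that releases peptides from stalled ribosomes. The lowest were -0.33 for Mrpl19 and -0.16 for Mrpl39. By Dixon's ratio over the 6 values, a single library stood clear of the other 5 in 7 members. In 5 of these members it was Hetero 3 at the top. The ratios of the 7 members ran from 0.659 for Mrpl52 to 0.767 for Mrps12. No share of all genes meeting this criterion is given, so whether 7 members are more than usual was not tested.

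Estimated depth, transcript length and other gene groups moved with this library, and their part in the result was not tested. The 39 members with the shorter transcripts had a level of 0.14 in Hetero 3, and the 39 with the longer transcripts had 0.06. Of the shorter members 30 were higher in Hetero than in WT, and of the longer members 19. Among all coding genes tested, the 3640 with the shortest transcripts stood at 0.07 in Hetero 3 and the 3638 with the longest at -0.10.

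Once each library was corrected for GC content and length of the transcripts, the level of the members in Hetero 3 was 0.07. The cytosolic ribosomal protein genes had a level of 0.14 in Hetero 3, which was their highest library in 66 of 76 cases. The summed blood markers (3 of 3 in the table) read 12005, 12351 and 30359 in Hetero, against 15513, 8508 and 26474 in WT, so Hetero 3 and WT 3 were both high.

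**Figure D5:**
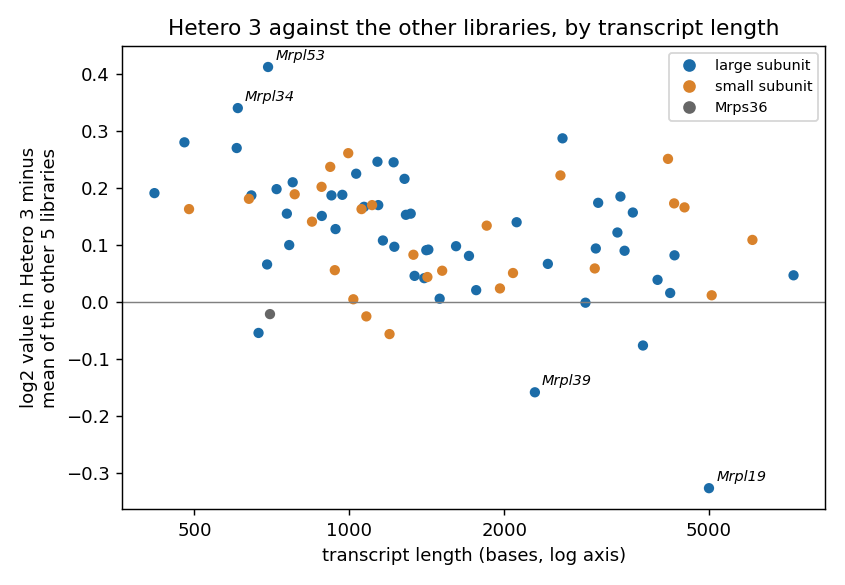
Each point is 1 gene, with its transcript length in bases on a log axis and, on the vertical axis, its log2 value in Hetero 3 minus the mean of the other 5 libraries. Of the 78 points 70 lie above 0, with Mrpl53 highest at 0.41 and Mrpl19 lowest at -0.33.

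Without Hetero 3, 11 members lay below all WT samples in both other Hetero samples, 14.1% of the 78 against 10.5% of all genes. They were Mrpl9, Mrpl10, Mrpl12, Mrpl45, Mrpl47, Mrpl48, Mrpl55, Mrps5, Mrps11, Mrps16 and Mrps23. One member, Mrpl44, lay above, against 10.4% of all genes. At an unadjusted p under 0.05 there were 2 members, Mrpl47 and Mrps5, which is 2.56% against 5.22% of all genes, and 0 at an adjusted p under 0.05.

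The members lie on 17 chromosomes, with 11 on chromosome 11, which also carries Cyfip2, and 8 on chromosome 17. The 11 genes on chromosome 11, among them Mrpl12, which encodes the stalk protein that recruits translation factors, had log2 changes of -0.09 to 0.05. The groups overlapped in all 11.

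Members often started back to back with another gene. A coding gene on the opposite strand began within 1000 bases upstream for 22 of 78 members (28.2%), against 1402 of 14560 coding genes tested (9.6%). Mrpl46 and Mrps11, 1 gene of each subunit, start 30 bases apart on chromosome 7 (at 78783089 and 78783119, GRCm38). Mrpl46 read 379.1, 365.1 and 438.1 in Hetero, against 378.0, 352.4 and 372.3 in WT, a log2 change of 0.10 ± 0.10 (SE). Mrps11 read 327.1, 293.6 and 374.3 in Hetero, against 362.9, 330.3 and 362.5 in WT, a log2 change of -0.09 ± 0.11 (SE). The fitted changes of the pair had opposite signs, and in both genes the groups overlapped.

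Among the other partners, Sars2 and Twnk were picked as examples with a role in mitochondria. The rest, among them Tcp1, Psma2 and Hira, were not sorted by role. Mrps12, whose protein lines the decoding centre, starts 232 bases from Sars2, the mitochondrial seryl-tRNA synthetase. Mrpl43 starts 116 bases from Twnk, the helicase of mitochondrial DNA replication. Log2 changes were 0.05 ± 0.08 for Mrps12, -0.003 ± 0.12 for Sars2, -0.01 ± 0.08 for Mrpl43 and -0.005 ± 0.08 for Twnk (SE).

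Promoters were read to show what the members share in sequence. Nuclear respiratory factor 1 (NRF1) and ETS proteins such as GABP are textbook regulators of nuclear genes for mitochondria. RefSeq windows of 250 bases before to 50 after the start were matched by symbol for 69 of 78 members, in 75 windows, and both strands were searched. The NRF1 motif, its half-sites GCGCA and GCGC with 1 base of any kind between them, stood in 17.3% of member windows, against 4.6% of all 32851 windows and 8.8% of the 14590 windows of coding genes tested. The ETS motif CCGGAAG stood in 34.7%, against 8.9% and 15.2%, and the YY1 motif AAGATGGCG in 10.7%, against 1.4% and 2.6%. The SP1 motif GGGCGG stood in 52.0%, against 35.7% and 59.9%, and TATAAA in 6.7%, against 13.6% and 7.4%. A match is a description of letters, not a bound site.

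The following 5 windows, each the 120 bases before the RefSeq start on GRCm38.p6, are given to show 1 kind of motif each, in capitals, in genes described above: an ETS match in Mrpl34 (chr8:71464806-71464925, plus strand), an NRF1 match in Mrpl44 (chr1:79775898-79776017, plus strand), NRF1 matches in the steady gene Mrpl45 (chr11:97315596-97315715, plus strand), a YY1 match in Mrps11 (chr7:78783011-78783130, plus strand), and none of the motifs in Mrpl47 (chr3:32736756-32736875, minus strand). The Mrps11 stretch also holds an SP1 match, left in lower case. The Mrpl47 window lies inside the annotated span of that gene, which reaches chr3:32737605. The absence of motifs there holds for the RefSeq start only.
Mrpl34: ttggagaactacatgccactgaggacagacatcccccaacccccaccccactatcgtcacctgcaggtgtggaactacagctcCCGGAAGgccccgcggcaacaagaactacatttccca
Mrpl44: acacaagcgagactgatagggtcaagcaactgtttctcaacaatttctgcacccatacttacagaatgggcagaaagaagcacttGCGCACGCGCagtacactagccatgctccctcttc
Mrpl45: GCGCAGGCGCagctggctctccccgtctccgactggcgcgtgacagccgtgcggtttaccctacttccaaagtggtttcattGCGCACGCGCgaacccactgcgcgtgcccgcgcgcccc
Mrps11: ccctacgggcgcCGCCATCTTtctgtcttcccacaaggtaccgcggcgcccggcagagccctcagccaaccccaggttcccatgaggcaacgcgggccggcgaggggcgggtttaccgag
Mrpl47: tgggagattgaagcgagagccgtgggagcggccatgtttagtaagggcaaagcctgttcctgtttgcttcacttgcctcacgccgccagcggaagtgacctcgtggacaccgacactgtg

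Mrpl34 and Mrpl44, both fitted higher in Hetero, thus carried different motifs, and no test linked a motif to the change of a gene.

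The rest of the pathway was described from lists of genes by role. A list of 6 genes held mitoribosomal proteins with other symbols and Oxa1l, an insertase of the inner membrane that is not a ribosomal protein. Of the 6, 3 were higher and 3 lower in Hetero, and 0 passed the test or had an unadjusted p under 0.05. Oxa1l was among the lower ones (log2 change -0.02 ± 0.07, SE). Aurkaip1, a small subunit protein, read 965.6, 953.8 and 1056.3 in Hetero, against 918.7, 935.2 and 886.3 in WT, without overlap (log2 change 0.12 ± 0.07, SE). Chchd1, also of the small subunit, read 281.0, 320.1 and 369.6 in Hetero, against 312.3, 283.2 and 275.9 in WT (0.15 ± 0.12). Ptcd3, an RNA-binding protein of the small subunit named here after its values were seen, lay below WT without overlap, with 1088.6, 1075.4 and 1098.2 in Hetero, against 1139.7, 1114.4 and 1140.4 in WT (-0.06 ± 0.06). Of the 6 genes 1 thus lay above WT and 1 below, beside 4.4% and 4.32% of all genes.

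Among 12 mitochondrial translation factors 7 were higher and 5 lower, and 0 passed the test. At an unadjusted p under 0.05 there was 1, beside 3.83% of all genes. Mtif2, the initiation factor that joins the subunits with the initiator tRNA, read 803.4, 832.2 and 689.0 in Hetero, against 669.7, 494.0 and 698.7 in WT. Its log2 change was 0.33 ± 0.14 (SE; limma adjusted p = 1.0), and the groups overlapped. Tsfm, the exchange factor for elongation factor Tu, read 322.5, 290.1 and 340.4 in Hetero, against 279.8, 215.4 and 333.0 in WT (0.22 ± 0.15).

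Of 26 assembly and ribosomal RNA modification factors 12 were higher and 14 lower, and 0 passed the test or had an unadjusted p under 0.05. Fastkd2, an RNA-binding protein needed for the large subunit, had a log2 change of -0.19 ± 0.12 (SE). Ptcd1, another RNA-binding protein, read 621.0, 640.7 and 631.7 in Hetero, against 593.9, 593.2 and 599.2 in WT, without overlap (0.08 ± 0.07). Rpusd4, a pseudouridine synthase named after its values were seen, read 153.1, 156.5 and 152.3 in Hetero, against 173.5, 162.5 and 168.5 in WT (-0.13 ± 0.11). Of the 26 genes 1 lay above WT without overlap and 1 below, beside 4.4% and 4.32% of all genes.

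Of 17 mitochondrial aminoacyl-tRNA synthetases 9 were higher and 8 lower, and 0 passed the test. At an unadjusted p under 0.05 there was 1, beside 3.83% of all genes. Without overlap 1 lay above WT and 0 below, beside 4.4% and 4.32% of all genes. Without Hetero 3, 3 of 17 (17.6%) had an unadjusted p under 0.05, beside 5.22% of all genes, and 0 passed. In that fit 3 lay above WT without overlap and 3 below, beside 10.4% and 10.5% of all genes. Rars2, which charges the arginine tRNA, read 548.5, 516.4 and 433.9 in Hetero, against 354.8, 435.4 and 433.2 in WT (0.29 ± 0.12, SE; limma adjusted p = 1.0). Its lowest Hetero sample fell among the WT samples. Lars2, which charges the leucine tRNA, read 7573.0, 7368.6 and 6247.1 in Hetero, against 7241.7, 9052.5 and 8227.4 in WT (-0.21 ± 0.10, SE). Its groups overlapped. Its level lay far above the median of 453.7 normalized counts over the list, and the reason for this was not tested.

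Of 13 genes of mitochondrial transcription and its nuclear regulators 7 were higher and 6 lower, and 0 passed the test or had an unadjusted p under 0.05. Tfb2m, a mitochondrial transcription initiation factor, had a log2 change of 0.12 ± 0.09 (SE), and Polrmt, the mitochondrial RNA polymerase, one of -0.16 ± 0.13.

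The messages that the mitochondrial ribosome translates gave lower values in Hetero in 11 of 13 cases, with a median log2 change of -0.10. At an adjusted p under 0.05 there were 0, at an unadjusted p under 0.05 there were 6, all lower, and 6 lay below WT without overlap. Over all genes, 2.17% were lower at that level and 4.32% were lower without overlap. Without Hetero 3, 11 of 13 were lower, 5 of 13 had an unadjusted p under 0.05, beside 5.22% of all genes, and 7 lay below WT without overlap, beside 10.5% of all genes. The message mt-Nd4, for a subunit of complex I, read 211758, 217932 and 207090 normalized counts in Hetero, against 228468, 232088 and 241532 in WT (log2 change -0.14 ± 0.04, SE; limma adjusted p = 1.0). These messages are cut from the same long transcripts, so they are not independent, and their levels by library were 0.01, -0.05 and -0.08 in Hetero, against 0.04, -0.03 and 0.11 in WT. Hetero 3, the highest library for the ribosomal protein genes, was the lowest for these messages.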

How the data were processed

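The 6 mRNA libraries were made with a stranded kit, per the labels' protocols, and sample titles gave the groups. The deposited table holds normalized counts by gene, treated here as a signal because they are not whole numbers and the columns have nearly equal totals. Per the submitters' processing notes, Salmon 0.11.2, DESeq2 1.19.11, R 3.6.0 and the GRCm38 build belong to the authors' processing, with no step given for each. Low values (under 60) were searched for the worth of 1 read: 15.5% to 28.1% of them were whole multiples of a step within 0.02, so reads were not recovered and no count test was run. The scaling removes depth from the column totals, and the depths given are estimates from these steps.

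Identifiers were matched to GENCODE M21 (17875 matched, 14 did not), and coordinates are 1-based on GRCm38. Values were analysed as log2(value + 1) for genes with a mean of at least 10, so log2 changes understate those of low genes, with limma 3.58.1 (trend and robust fitting) in R 4.3.3, as two-sided tests at a threshold of 0.05, the Benjamini-Hochberg adjustment covering all 14969 genes. The procedure was tested on simulated data. Levels per kilobase use 1 principal transcript per gene. Copies were found with blastn 2.17.0, and promoters are from RefSeq.

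The members and lists were chosen with earlier results of these data known. Named members are the 6 with the smallest p in each direction, the 5 highest and 5 lowest per kilobase, the Mrps18 paralogs, Mrps30, Mrps36, those with a library apart or a copy, and the 2 with the smallest p of each companion list; other names were chosen after their values were seen. The nearest replicates differed by a median absolute log2 difference of 0.095, so no column was a copy of another. This does not tell whether samples came from different animals. No batch or date is given in the labels. As alternatives, the fit was repeated with plain limma moderation, TMM scaling, median centring, other filters, pseudocounts of 0.5 and 8, a replicate block, removal of GC and length trends, a threshold of 0.1, and each sample left out.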

Additional observations from a re-analysis of the deposited data

How the results depend on the processing

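In all alternatives run, 0 members were called. The count of all genes called was 0, and became 2 with a replicate block (Cyfip2 and Jun), 1 with GC content and length trends removed (Cyfip2), and 0 to 1 when 1 sample was left out. Members at an unadjusted p under 0.05 numbered 0, beside 3.83% of all genes. They became 1 without a filter on low values (Mrpl47) and 2 with the replicate block (Mrps5 and Mrpl47). With 1 sample left out there were 0 to 3. Without Hetero 3 there were 2 members (2.56%), beside 5.22% of all genes. For the other alternatives no share of all genes is given, so these counts are not read as results about the members. The log2 change of Cyfip2 was -0.57 with the replicate block (limma adjusted p = 0.0016) and -0.55 with the trends removed (limma adjusted p = 0.0365). Leaving out 1 sample gave 30 to 55 members higher in Hetero, the lowest without Hetero 3, and a median of -0.02 to 0.05. Mrps36 turned to 0.0003 under TMM scaling. Leaving out 1 sample turned the sign of Mrps18a (-0.10 to 0.034), Mrps30 (-0.018 to 0.073) and Mrps36 (-0.043 to 0.020). The cause was not tested.

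Deviations from the group means correlated over genes at -0.005, 0.004 and 0.227 between same-numbered samples. Between differently numbered samples the correlations ran from -0.184 to 0.181. Deviations within a group of 3 are tied to each other, so these values cannot settle whether the numbers pair the samples. With 3 samples a group, an exact permutation test cannot go below 0.1.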
